A study of Mus musculus with 43 samples.

Results

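The response of normal mouse colon organoids (colonoids) to 5-fluorouracil (5-FU) was measured by bulk RNA sequencing in 6 of the 43 libraries of the series, 3 with 1 µM 5-FU and 3 with vehicle. The colonoids were grown from adult male mice 2 months of age with wild-type Apc that carried VilCreERT2, a tamoxifen-inducible Cre driven by the villin promoter of intestinal epithelium, and that had been injected with tamoxifen in the same way as the mice from which Apc-deleted tumoroids were made. Each of the 3 lines, M41, M40 and M1, came from 1 mouse and gave 1 library per treatment, so every 5-FU library has a vehicle library of the same line. Colonoids were kept in Matrigel with EGF, Noggin, R-spondin 1 and Wnt3a-conditioned medium and were exposed from replating for 6 days to 5-FU or to vehicle (0.5% DMSO). The sources used here do not give the solvent of 5-FU. The cultures hold epithelium without stroma, and all 3 lines are male. Genes with at least 200 CP20M in 2 or more of the 6 libraries were kept, which left 10536 of 52636 genes. CP20M is the number of reads counted on a gene per 20000000 counted reads of the library, not divided by transcript length, so levels are compared here between libraries and not between genes. There were 123 genes whose second highest value was 200 to 209 CP20M and 127 just below, at 190 to 199.

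5-FU is a pyrimidine analog that cells convert to fluorinated nucleotides. One of them blocks thymidylate synthase, the enzyme that makes thymidylate for DNA, and others are built into RNA and DNA in place of uracil and thymine. In the intestinal epithelium the dividing cells of the crypt are the ones most exposed to these effects, and p53, a transcription factor activated by DNA damage and by disturbed ribosome production, is a well-known mediator of the response. The colon epithelium renews from crypt stem cells that give rise to mucus-producing goblet cells, absorptive colonocytes and rarer enteroendocrine and tuft cells.

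The 6 libraries held between 6590317 and 18677780 reads on genes, as judged from the smallest step between values, with vehicle M41 the shallowest. All 14 defining markers of colon epithelium passed the filter, while 0 of 10 fibroblast, 0 of 6 endothelial and 0 of 7 muscle, glial and neuronal markers did, with summed levels of at most 143, 71 and 72 CP20M per library. Of 10 immune markers 1 passed, Csf1r, at 353, 463 and 406 with vehicle and 384, 448 and 385 with 5-FU, and Ptprc, the gene of the pan-leukocyte antigen CD45, did not exceed 7 CP20M. In this text 3 values in a row are those of lines M41, M40 and M1, in that order and in CP20M, unless stated otherwise. Vehicle M40 stood apart from the other vehicle libraries in 2 respects. The summed level of 48 genes of G2 and mitosis was 9473, 47395 and 10393 CP20M with vehicle and 28662, 26294 and 17544 with 5-FU, and that of 30 genes of the integrated stress response was 98577, 51878 and 88350 CP20M with vehicle and 56079, 46553 and 53473 with 5-FU. Vehicle M40 was thus the highest of the 6 libraries in mitotic genes and the lowest of the 3 vehicle libraries in stress response genes. For the lists described below, counts of calls are also given without single lines where these moved them.

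For the comparison of 5-FU with vehicle, limma was fitted to log2(CP20M + 20) and the line entered as a block. A gene was called at an adjusted p under 0.05 and a fold change of at least 1.5. Of the 10536 genes, 591 were called (5.61%), 400 higher with 5-FU (3.8%) and 191 lower (1.81%). All 591 moved the same way in 3 of 3 lines, as did 46.8% of all genes tested. For 275 of the 400 the 3 5-FU libraries lay above all 3 vehicle libraries, which was so for 8.66% of all genes, and for 117 of the 191 they lay below, against 7.74% of all genes. Among the called genes, 58 reached 200 CP20M in no vehicle library and 18 in no 5-FU library, and these could enter the test only through the group in which they were high. Over all tested genes the median log2 fold change was 0.00488. The count depended on which line was left out and was 245 without M41, 891 without M40 and 92 without M1. A set of 80 genes, 67 higher and 13 lower, was called with all lines and without each line in turn. Among the genes named below it holds Trp53inp1, Eda2r, Ephx1, Cbs, Thbs1, Fn1, Ctgf, Amotl1, Gja1, S100a7a, Inhba, Flnc, Fbln2 and Nat8l, which rose, and Clca1, Tff3, Agr2, Muc13, Cdx1, Calcb and Sectm1b, which fell. Of the 99 genes named below for this comparison and called in it, 57 lost the call without M41, 9 without M40 and 75 without M1. Without the line as a block limma called 0 genes, with 1013 at an unadjusted p under 0.05. Fits over the organoid libraries of all treatments, which add those with regorafenib, called fewer genes, 68 with 24 libraries and 350 with 23, after the 4 µM regorafenib library of M41 with 507197 reads was left out. With 24 libraries the calls in the lists were 2 higher among the p53 targets, 4 higher among the regenerative genes, 2 lower among the stress response genes and 1 lower among the fluoropyrimidine genes, with 0 in every other list. The p-values compare 3 lines of 3 mice, and changes in the share of a cell type cannot be told apart from changes in RNA per cell.

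More direct targets of p53 rose than fell. Of 53 listed targets 45 passed the filter, 16 rose, 1 fell and 28 were not called, and their median log2 fold change was 0.48, against 0.00488 for all genes. By line the median of the targets was 0.58 in M41, 0.39 in M40 and 0.57 in M1. In 17 of the 45 the 5-FU libraries lay above all vehicle libraries and in 0 below, against 8.66% above and 7.74% below among all genes tested.

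Mdm2, the ubiquitin ligase that degrades p53 and is itself induced by it (chr10:117688875-117710758, minus strand), read 4006, 2874 and 3801 with vehicle and 7195, 3916 and 7586 with 5-FU. It was higher with 5-FU in each line, although 5-FU M40 lay below vehicle M41, and the log2 fold change was 0.76 ± 0.13, adjusted p = 0.0117. Ccng1, which encodes cyclin G1 (chr11:40748552-40755311, minus strand), read 13259, 8847 and 10836 with vehicle and 20681, 13056 and 20414 with 5-FU and rose by 0.70 ± 0.11, adjusted p = 0.00724. Trp53inp1, a p53-induced nuclear protein that promotes cell cycle arrest and cell death, was at 6892, 4572 and 6054 with vehicle and 12210, 7880 and 11938 with 5-FU. All 3 5-FU libraries lay above all 3 vehicle libraries, and the log2 fold change was 0.86 ± 0.09, adjusted p = 0.00131.

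Eda2r, a death-domain receptor of the tumor necrosis factor receptor family, was at 1351, 871 and 1382 with vehicle and 2576, 1484 and 2345 with 5-FU (0.81 ± 0.09, adjusted p = 0.00178). Tnfrsf10b, the mouse TRAIL receptor, was at no more than 1696 in the vehicle libraries and at 2110, 1933 and 2541 with 5-FU (0.66 ± 0.10, adjusted p = 0.00814). Zmat3, an RNA-binding protein, read 5897, 6101 and 7769 with vehicle and 9963, 9370 and 11007 with 5-FU (0.62 ± 0.09, adjusted p = 0.00684). In these 3 genes every 5-FU library lay above every vehicle library. Targets with roles in DNA repair and detoxification included Ercc5, a nuclease of nucleotide excision repair, at 583, 654 and 894 with vehicle and 1668, 1046 and 1545 with 5-FU (0.97 ± 0.17, adjusted p = 0.0105), and Ephx1, a microsomal epoxide hydrolase, at 1858, 1511 and 2687 with vehicle and 4733, 2675 and 5191 with 5-FU (1.03 ± 0.11, adjusted p = 0.00174). Crip2, Pml, Trp53i11, Phlda3 and Sesn2 rose by 1.05, 0.71, 0.67, 0.65 and 0.59 on the log2 scale, with adjusted p = 0.00983, 0.0128, 0.0331, 0.0268 and 0.0104. Cdkn2a, described below with the cell cycle inhibitors, was also on the list and rose by 0.68 (adjusted p = 0.018). It is usually placed upstream of p53 and is not an established gene that p53 induces.

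The largest fold changes among the targets were those of genes at low levels. Ak1, an adenylate kinase, went from 52, 6 and 153 to 416, 14 and 1693 (2.10 ± 0.48, adjusted p = 0.029), and Ddit4l, an inhibitor of mTORC1, from 125, 74 and 194 to 565, 120 and 743 (1.47 ± 0.35, adjusted p = 0.0331). In line M40 both genes stayed, with 5-FU, below the vehicle value of M1. Plk3, a stress-activated kinase, was the 1 target that fell, from 553, 975 and 394 to 297, 505 and 201 (-0.89 ± 0.14, adjusted p = 0.00724).

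Cdkn1a, the cyclin-dependent kinase inhibitor p21, was higher in each line but was not called. Its values were 5363, 4701 and 5942 with vehicle and 7405, 5170 and 10747 with 5-FU, with a log2 fold change of 0.48 ± 0.13, adjusted p = 0.0526. The change was largest in M1 and smallest in M40. Trp53 itself read 2037, 2434 and 2643 with vehicle and 2529, 2453 and 2970 with 5-FU (0.16 ± 0.11, adjusted p = 0.374), and 0 of 12 genes of p53 and its regulators that passed the filter were called (2 higher without M40). Of the death effectors under p53, Bbc3 (PUMA), Bax and Pmaip1 (NOXA) were not called either, at 0.56 ± 0.15, adjusted p = 0.0526 for Bbc3, 0.34 ± 0.12, adjusted p = 0.116 for Bax and 0.19 ± 0.18, adjusted p = 0.548 for Pmaip1. Without M40 limma called 21 targets higher and 1 lower, without M41 it called 5 higher and 1 lower, and without M1 it called 4 higher and 0 lower.

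**Figure D1:**
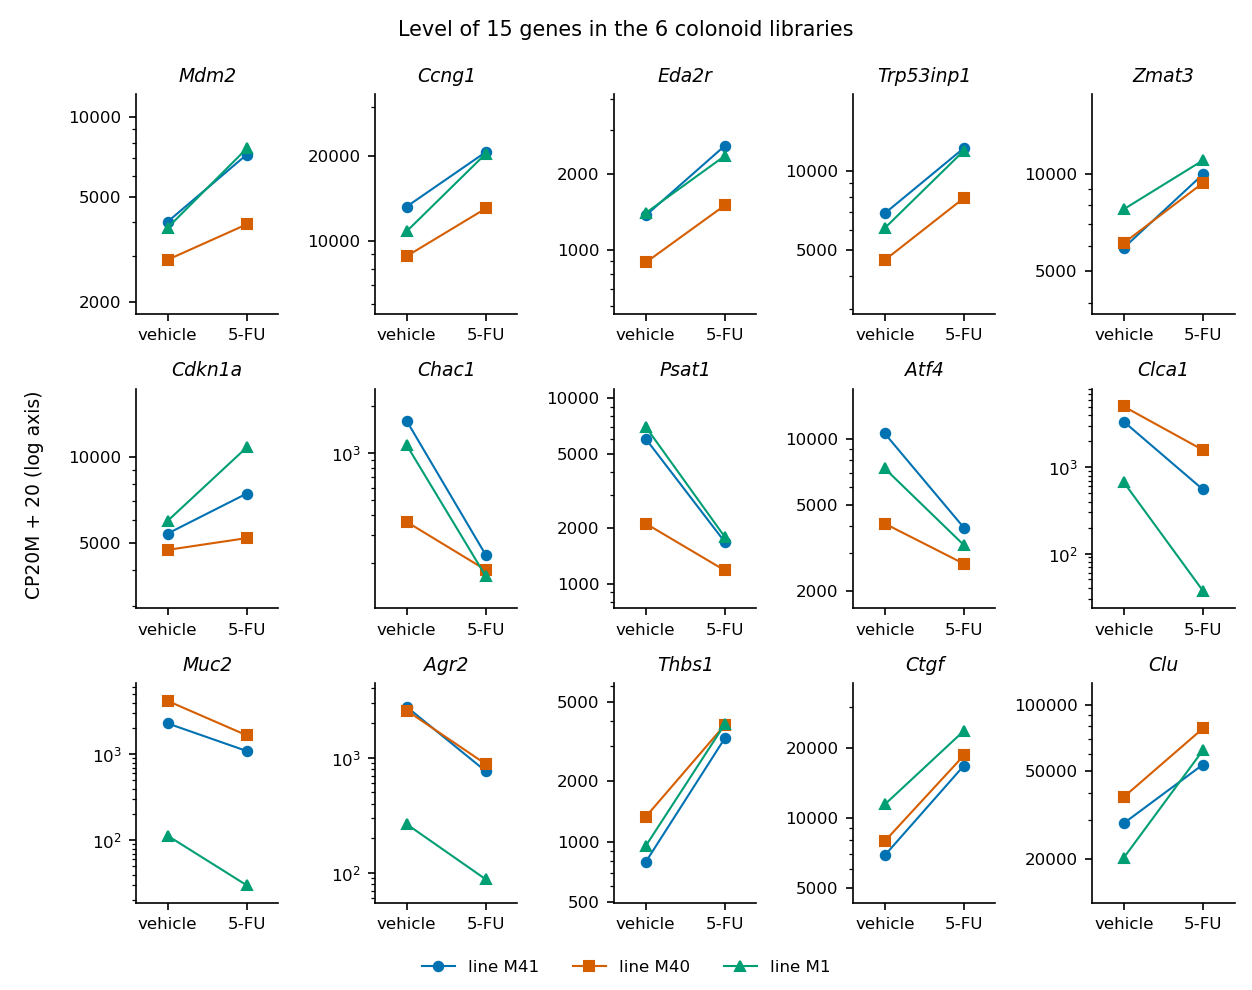
Level of 15 genes in the 6 colonoid libraries, as CP20M + 20 on log axes whose ranges differ between panels. Each line joins the vehicle and the 5-FU library of 1 colonoid line (M41 circles, M40 squares, M1 triangles); the first 6 panels are p53 targets, then come 3 stress response genes, 3 goblet cell genes and 3 genes that rose, and in the 15 panels all 3 lines move the same way.

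Of 36 genes that take up, activate or degrade fluoropyrimidines or are inhibited by them, 28 passed the filter, 0 rose and 1 fell. Over all genes tested 5.61% were called, so this count does not set the list apart. The median log2 fold change of the 28 was 0.0768. Tyms, thymidylate synthase, read 519, 724 and 468 with vehicle and 629, 446 and 328 with 5-FU (-0.30 ± 0.25, adjusted p = 0.487), lower in M40 and M1 and higher in M41. Umps, which makes the monophosphate of uracil analogs, read 862, 634 and 744 with vehicle and 704, 555 and 518 with 5-FU (-0.33 ± 0.14, adjusted p = 0.174). Dpyd, the enzyme that degrades 5-FU, did not exceed 7 CP20M in any of the 6 libraries, and Upp1, uridine phosphorylase, stayed between 53 and 110; neither passed the filter. The 1 gene that fell was Mthfd2, an enzyme of mitochondrial folate metabolism that is described below with the stress response genes. Without M40 limma called 4 genes of this list higher and 1 lower, and without M41 or M1 it called 0.

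Among 17 genes of pyrimidine synthesis and salvage that passed the filter, 2 rose and 0 fell. They are the deaminases Dctd, which turns dCMP into dUMP, the substrate of thymidylate synthase, and Cda, which acts on cytidine. Dctd read 225, 186 and 257 with vehicle and 468, 286 and 417 with 5-FU (0.74 ± 0.14, adjusted p = 0.0139) and Cda read 143, 133 and 202 with vehicle and 301, 187 and 331 with 5-FU (0.69 ± 0.18, adjusted p = 0.0448). The list had 3 genes called higher without M40 and 0 without M41 or M1. Of 14 genes of base excision repair and 23 genes of mismatch repair, the Fanconi pathway and homologous recombination, 0 were called in either direction. Without M40, 6 of the 23 were called higher and 0 lower, and their median log2 fold change went from 0.33 to 0.52. Likewise 0 of 40 genes of RNA exosome, pseudouridine and rRNA processing and 0 of 76 ribosomal protein genes were called, and 1 of the 40 was called higher without M40. The ribosomal protein genes had a median log2 fold change of -0.21, by line -0.19 in M41, -0.37 in M40 and -0.051 in M1, and 3 of the 76 had a fitted value above 0.

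The genes of the cell cycle differed in direction between lines. Of 45 genes of G2 and mitosis that passed the filter, 0 were called, and the fitted median log2 fold change of 0.51 stood for 1.61 in M41, -0.86 in M40 and 0.77 in M1. All 45 were higher with 5-FU in M41, 0 of 45 in M40 and 44 of 45 in M1. Of 41 genes of DNA replication and S phase, 0 were called, with medians of 1.10 in M41, -0.35 in M40 and 0.16 in M1, and 40, 1 and 29 of them were higher in M41, M40 and M1. Of 47 replication-dependent histone genes that passed, 0 were called, and 43, 0 and 22 were higher, with 1 called higher without M40.

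Single genes, chosen after their values were seen, give the levels in each line. Mki67, the proliferation antigen Ki-67, read 592, 4532 and 926 with vehicle and 1496, 2429 and 935 with 5-FU, Ccnb1, cyclin B1, read 137, 1127 and 148 with vehicle and 780, 558 and 391 with 5-FU, and Top2a, a topoisomerase of dividing cells, read 480, 3846 and 881 with vehicle and 1947, 2291 and 1381 with 5-FU. With vehicle, M40 was far above the other lines in each of these 3 genes. With 5-FU the lines lay closer together, the summed G2 and mitosis level spanning 17544 to 28662 CP20M against 9473 to 47395 with vehicle. Without M40 limma called 26 G2 and mitosis genes and 5 S-phase genes higher and 0 lower, and without M41 or M1 it called 0 of either list. Rrm2, the subunit of ribonucleotide reductase made in S phase, read 295, 882 and 348 with vehicle and 1520, 662 and 816 with 5-FU (1.02 ± 0.38, adjusted p = 0.132), and Tk1, thymidine kinase 1, read 222, 867 and 241 with vehicle and 714, 415 and 450 with 5-FU (0.47 ± 0.38, adjusted p = 0.47), both with the same split between lines.

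Cdkn2a, the gene of the cell cycle inhibitors p16 and p19ARF, was the 1 gene called among 21 cyclins, inhibitors, pocket proteins and E2F factors. It read 1190, 1028 and 897 with vehicle and 1937, 1596 and 1491 with 5-FU (0.68 ± 0.14, adjusted p = 0.018), with no overlap. Over all genes tested 5.61% were called, so 1 call among 21 does not set the list apart. Without M40, 4 genes of this list were called higher, and without M41 or M1 0. Among 26 apoptosis genes outside the p53 list, Bcl2, which protects from apoptosis, and Casp8, the initiator caspase of death receptors, rose, while Ripk3, the kinase of necroptosis, fell. Bcl2 was at 328, 526 and 342 with vehicle and 655, 876 and 606 with 5-FU (0.82 ± 0.12, adjusted p = 0.00684), Casp8 at 2249, 2567 and 2167 with vehicle and 2862, 3845 and 4016 with 5-FU (0.60 ± 0.12, adjusted p = 0.0185) and Ripk3 at 2525, 1783 and 2357 with vehicle and 1405, 1476 and 1353 with 5-FU (-0.63 ± 0.13, adjusted p = 0.0211). The apoptosis list had 2 genes called higher and 0 lower without M41, 2 and 2 without M40, and 0 without M1.

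**Figure D2:**
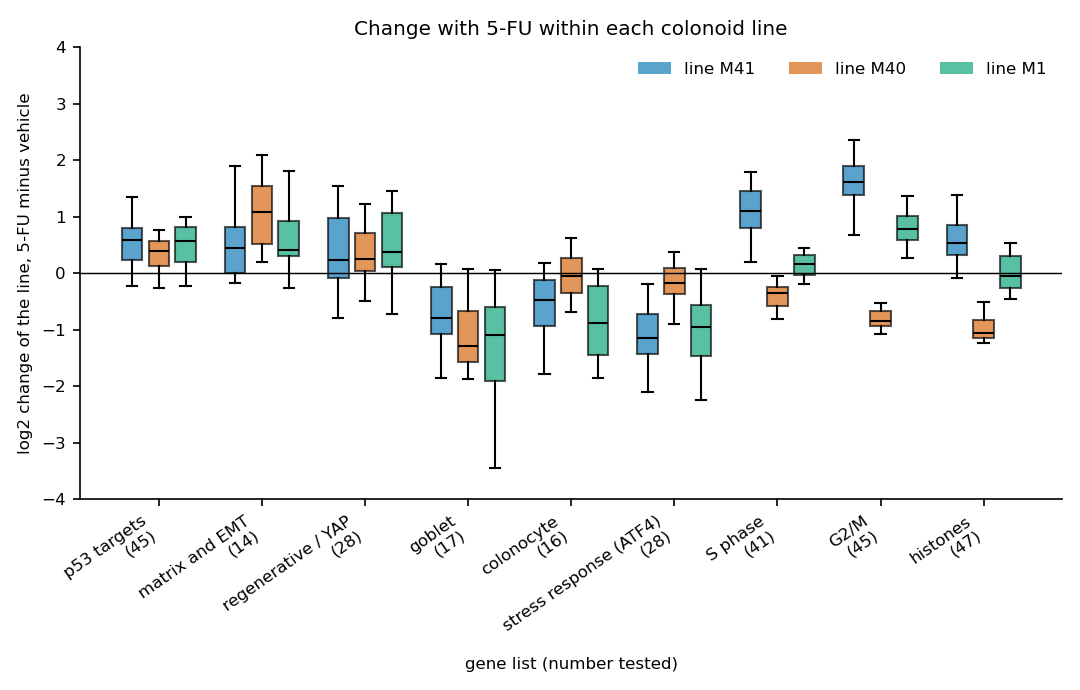
Log2 change from vehicle to 5-FU, log2(CP20M + 20), within each colonoid line for the tested genes of 9 lists; boxes show the quartiles and the median over genes, whiskers the 5th and 95th percentiles. The medians of the p53, matrix and goblet lists lie on the same side of 0 in M41, M40 and M1, while those of the S-phase and G2/M lists lie above 0 in M41 and M1 and below 0 in M40.

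More goblet cell genes fell than rose. Of 24 goblet and deep secretory genes 17 passed the filter, 9 fell and 0 rose, with a median log2 fold change of -0.95 and medians by line of -0.80 in M41, -1.30 in M40 and -1.10 in M1. The summed level of the 24 genes was 22598, 33274 and 12666 CP20M with vehicle and 10318, 15712 and 5715 with 5-FU, lower with 5-FU in each line. In M1 the single gene Muc13 made up 6883 of the 12666 with vehicle and 3196 of the 5715 with 5-FU.

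Clca1, a secreted protein of the mucus layer (chr3:145003817-145032776, minus strand), had the largest fall of all called genes. It read 3366, 5060 and 651 with vehicle and 534, 1571 and 17 with 5-FU (-2.82 ± 0.38, adjusted p = 0.00491). Muc2, the gel-forming mucin of colon mucus, read 2267, 4154 and 93 with vehicle and 1072, 1644 and 10 with 5-FU (-1.44 ± 0.25, adjusted p = 0.0114). Line M1 was far below the other lines in both genes with either treatment, so the groups overlap although every line fell.

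Tff3, the trefoil peptide of goblet cells, was at 2771, 2866 and 138 with vehicle and 1305, 943 and 8 with 5-FU (-1.72 ± 0.26, adjusted p = 0.00684), and Fcgbp, a mucus component, at 1333, 3536 and 429 with vehicle and 714, 1777 and 21 with 5-FU (-1.77 ± 0.43, adjusted p = 0.035). Agr2, a protein disulfide isomerase needed for mucin folding, read 2747, 2550 and 245 with vehicle and 745, 862 and 68 with 5-FU (-1.66 ± 0.16, adjusted p = 0.00102). These 3 genes share the low values of line M1. Muc13, a transmembrane mucin, was the 1 goblet list gene that fell without overlap, at 4413, 6129 and 6883 with vehicle and 2534, 3334 and 3196 with 5-FU (-0.92 ± 0.10, adjusted p = 0.00174). Retnlb, Creb3l1 and Sytl2 fell by 1.24, 0.95 and 0.85 on the log2 scale (adjusted p = 0.033, 0.0248 and 0.032). Atoh1 and Spdef, the transcription factors of the secretory lineage, did not pass the filter, at 43, 118 and 6 with vehicle and 27, 54 and 0 with 5-FU for Atoh1 and 113, 293 and 8 with vehicle and 40, 100 and 5 with 5-FU for Spdef. The count of goblet genes called lower was 7 without M41, 7 without M40 and 5 without M1. It was 3 with the line as a random block, where the correlation within lines is estimated, 1 with 23 organoid libraries and 0 with 24.

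Of 16 absorptive colonocyte genes that passed the filter, 4 fell and 1 rose, and the median was -0.47. Ceacam1, a cell adhesion molecule, read 18121, 21711 and 22902 with vehicle and 9525, 17331 and 11865 with 5-FU (-0.73 ± 0.17, adjusted p = 0.0286), Ms4a8a read 2264, 2860 and 3040 with vehicle and 1409, 1761 and 1414 with 5-FU (-0.82 ± 0.12, adjusted p = 0.00609), and Cdhr5, a protocadherin of the brush border, read 2019, 1453 and 1201 with vehicle and 996, 976 and 337 with 5-FU (-1.11 ± 0.25, adjusted p = 0.0269). The groups did not overlap in these 3 genes. Cdhr2, the partner of Cdhr5 in the same adhesion complex, went the other way, at 3624, 4992 and 4686 with vehicle and 5736, 8046 and 6604 with 5-FU (0.61 ± 0.10, adjusted p = 0.0102). Cyp2c55, a cytochrome P450, fell from 686, 410 and 92 to 96, 165 and 11 (-1.89 ± 0.33, adjusted p = 0.0112). Without M40 limma called 7 colonocyte genes lower and 0 higher, without M41 1 lower and 0 higher, and without M1 0 in either direction. With 23 organoid libraries 0 colonocyte genes were called.

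The homeobox factors of intestinal identity were also called lower, Cdx2 only with all 3 lines. Cdx1 read 2207, 3262 and 1484 with vehicle and 1204, 1771 and 490 with 5-FU (-1.10 ± 0.15, adjusted p = 0.00502) and Cdx2 read 2365, 1541 and 2064 with vehicle and 1904, 894 and 1009 with 5-FU (-0.70 ± 0.18, adjusted p = 0.0424). They were the 2 genes called among the 14 epithelial markers, while Epcam, at 13945, 17835 and 14201 with vehicle and 11698, 18200 and 13308 with 5-FU (-0.11 ± 0.11, adjusted p = 0.569), and Cdh1, at 20670, 26111 and 26381 with vehicle and 15768, 34167 and 21545 with 5-FU (-0.10 ± 0.15, adjusted p = 0.721), were not called. With the line as a random block the calls of both factors were lost (adjusted p = 0.107 for Cdx1 and 0.12 for Cdx2), as they were with 23 or 24 organoid libraries. The call of Cdx1 held without each line in turn, and that of Cdx2 was lost in each case. Of 19 intestinal stem cell genes 1 rose, the RNA-binding protein Mex3a, at 359, 743 and 594 with vehicle and 768, 1072 and 1091 with 5-FU (0.81 ± 0.20, adjusted p = 0.0354), and 0 fell, a call that was lost without M41 or M1. With 5.61% of all tested genes called, this count does not set the stem cell list apart. Of 15 Wnt target genes 0 were called. Among 6 enteroendocrine genes Cpe, carboxypeptidase E, rose from 1151, 2674 and 444 to 1678, 6771 and 637 (0.79 ± 0.17, adjusted p = 0.022). The other 5 went the other way, with fitted values below 0, and were not called. The median of the 6 was -0.75, by line -1.44 in M41, -0.60 in M40 and -0.14 in M1. Of 3 tuft cell genes 0 were called. The call of Cpe was lost without any 1 of the lines and with the line as a random block, and 1 tuft cell gene was called lower without M40.

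More genes of the integrated stress response fell than rose. In this response the transcription factor ATF4 induces amino acid transporters, enzymes of serine, proline and asparagine synthesis and mitochondrial folate enzymes. Of 28 genes that passed the filter 11 fell, 2 rose and 15 were not called, and 26 of the 28 had a fitted log2 fold change below 0, with a median of -0.77. The fall was larger in lines M41 and M1, where the medians were -1.15 and -0.96, while that of M40 was -0.17. In vehicle M40 the summed level of the list lay below that of 5-FU M41 and 5-FU M1, as given above. Limma called 18 of these genes lower without M40, 2 without M41 and 0 without M1, and 6 with the 6 colonoid libraries alone or with 23 organoid libraries. The count called higher was 2 without M40 and 1 without M41 or M1.

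Atf4 (chr15:80255184-80257541, plus strand) read 10564, 4071 and 7300 with vehicle and 3901, 2660 and 3244 with 5-FU (-1.07 ± 0.15, adjusted p = 0.00517). Chac1, an enzyme that degrades glutathione, read 1579, 344 and 1101 with vehicle and 204, 160 and 144 with 5-FU (-2.21 ± 0.34, adjusted p = 0.00756), the largest fall on the list. Trib3, a pseudokinase that feeds back on ATF4, read 1873, 151 and 1211 with vehicle and 179, 112 and 209 with 5-FU (-2.02 ± 0.46, adjusted p = 0.0296). In Atf4 and Chac1 all 5-FU libraries lay below all vehicle libraries, and in Trib3 vehicle M40 lay within the range of the 5-FU libraries.

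Of the enzymes of serine and one-carbon metabolism, Psat1 read 6015, 2091 and 6979 with vehicle and 1661, 1162 and 1769 with 5-FU (-1.55 ± 0.25, adjusted p = 0.00922), Psph 1129, 439 and 916 with vehicle and 417, 422 and 390 with 5-FU (-0.88 ± 0.23, adjusted p = 0.0459) and Mthfd2 2868, 782 and 2162 with vehicle and 655, 411 and 441 with 5-FU (-1.75 ± 0.32, adjusted p = 0.0132). Asns, asparagine synthetase, read 5836, 2171 and 4966 with vehicle and 2600, 2050 and 2132 with 5-FU (-0.82 ± 0.21, adjusted p = 0.0422), and Aldh18a1, the first enzyme of proline synthesis, 2965, 1535 and 3876 with vehicle and 1265, 1523 and 1446 with 5-FU (-0.88 ± 0.22, adjusted p = 0.0423). In each of these 5 enzymes the 3 lines spanned a narrower range with 5-FU than with vehicle. Slc7a5, the transporter of large neutral amino acids, Gpt2, a mitochondrial alanine transaminase, and Eif4ebp1, the translation repressor 4E-BP1, fell by 1.33, 1.12 and 1.00 on the log2 scale (adjusted p = 0.0265, 0.0244 and 0.0268). Genes outside the list with the same pattern stood among the 15 largest falls: Aldh1l2, a mitochondrial folate dehydrogenase, at 750, 27 and 837 with vehicle and 99, 12 and 110 with 5-FU (-1.99 ± 0.45, adjusted p = 0.0282), Pck2, mitochondrial phosphoenolpyruvate carboxykinase, at 3788, 937 and 3775 with vehicle and 799, 556 and 743 with 5-FU (-1.75 ± 0.26, adjusted p = 0.00614), and Adm2, a peptide hormone of the adrenomedullin family, at 292, 12 and 353 with vehicle and 18, 4 and 38 with 5-FU (-2.05 ± 0.43, adjusted p = 0.0207). The 2 list genes that rose were Cbs, cystathionine beta-synthase of cysteine synthesis, at 116, 75 and 215 with vehicle and 570, 239 and 1168 with 5-FU (1.97 ± 0.20, adjusted p = 0.00131), and Sesn2, a leucine sensor that is also on the p53 list, at 1287, 1044 and 1413 with vehicle and 2142, 1460 and 2085 with 5-FU (0.59 ± 0.10, adjusted p = 0.0104).

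For this list, the 250 bases upstream of their start sites were searched for TGATGNAA, a core of the elements bound by ATF4 and its partners, on both strands. The bases come from RefSeq on GRCm38.p6. Promoters of 26 of the 30 listed genes were found by symbol, and 8 of them (30.8%) held the motif, against 3.91% of all 27025 genes with a promoter in the table and 2.2% of the 7781 tested genes matched by symbol. Among the genes that fell it was 2 of 9, and among those not called 5 of 14. The upstream regions of the 2 genes that fell and held the motif, Chac1 and Asns, are shown with the motif in capitals. A match is a description of the letters and not of a bound site.
Chac1 (chr2:119350992-119351241, plus strand; the match, on the other strand, begins 193 bases before the start site): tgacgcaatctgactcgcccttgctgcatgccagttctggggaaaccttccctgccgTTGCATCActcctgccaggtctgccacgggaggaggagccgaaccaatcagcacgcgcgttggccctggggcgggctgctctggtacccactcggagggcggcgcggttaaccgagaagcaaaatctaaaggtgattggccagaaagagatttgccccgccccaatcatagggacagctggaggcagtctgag
Asns (chr6:7693210-7693459, minus strand; the match begins 23 bases before the start site): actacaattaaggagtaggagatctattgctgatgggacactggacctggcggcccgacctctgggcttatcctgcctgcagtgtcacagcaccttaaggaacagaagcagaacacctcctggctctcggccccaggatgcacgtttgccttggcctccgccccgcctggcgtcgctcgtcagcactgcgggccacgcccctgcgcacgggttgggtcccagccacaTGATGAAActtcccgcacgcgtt

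More extracellular matrix genes rose than fell. Of 28 matrix and epithelial-mesenchymal transition genes 14 passed the filter, 8 rose and 0 fell, and the median log2 fold change was 0.74 (0.45 in M41, 1.08 in M40 and 0.40 in M1). The 8 genes encode matrix proteins or proteins that bind or process them. Thbs1, thrombospondin 1 (chr2:118111876-118127133, plus strand), read 771, 1310 and 931 with vehicle and 3265, 3809 and 3840 with 5-FU (1.87 ± 0.24, adjusted p = 0.00352), and Lamb1, a laminin chain, 98, 111 and 30 with vehicle and 416, 640 and 155 with 5-FU (2.01 ± 0.30, adjusted p = 0.00724). The groups did not overlap in either. Fn1, fibronectin, read 8367, 13095 and 3683 with vehicle and 15862, 55584 and 7245 with 5-FU (1.33 ± 0.21, adjusted p = 0.00814), and its rise was largest in M40. Lama3, Bmp1, Gpc1, Col4a1 and Col4a2 rose by 1.02, 1.04, 0.78, 0.76 and 0.72 (adjusted p = 0.0138, 0.0109, 0.00814, 0.0102 and 0.0157). The transcription factors of epithelial-mesenchymal transition, Snai1, Snai2, Twist1, Zeb1 and Zeb2, did not pass the filter, and Vim, vimentin, did not either, at 55, 80 and 3 with vehicle and 119, 234 and 22 with 5-FU. The count of matrix genes called higher was 6 without M41, 7 without M40 and 4 without M1, and 0 were called lower in each case. With 23 organoid libraries 3 were called higher, and with 24 it was 0.

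Some fetal-like regenerative genes and targets of the growth regulator YAP rose. Of 29 genes 28 passed the filter, 10 rose, 2 fell and 16 were not called, with a median of 0.26. Among the YAP targets, Ctgf, a secreted matricellular protein (chr10:24595442-24598683, plus strand), read 6868, 7905 and 11379 with vehicle and 16716, 18504 and 23603 with 5-FU (1.19 ± 0.10, adjusted p = 0.000962), Cyr61, its relative, 802, 893 and 921 with vehicle and 1862, 1419 and 1355 with 5-FU (0.80 ± 0.18, adjusted p = 0.0303), and Amotl1, which binds YAP, 765, 703 and 907 with vehicle and 1871, 2325 and 2411 with 5-FU (1.45 ± 0.12, adjusted p = 0.000934). Amotl2 read 1849, 1899 and 3024 with vehicle and 3474, 3140 and 6354 with 5-FU (0.90 ± 0.13, adjusted p = 0.00614) and Gja1, connexin 43, 353, 598 and 611 with vehicle and 1319, 1050 and 1607 with 5-FU (1.33 ± 0.17, adjusted p = 0.00374). In these 5 genes every 5-FU library lay above every vehicle library. The antisense transcript Gm15270 on the other strand of Ctgf read 2134, 2700 and 3952 with vehicle and 5366, 6708 and 8273 with 5-FU (1.23 ± 0.11, adjusted p = 0.000962), and whether strand was used in counting is not given in the sources used here.

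Clu, clusterin, a marker of regenerating crypt cells, read 29040, 38189 and 20258 with vehicle and 53517, 78010 and 62099 with 5-FU (1.18 ± 0.20, adjusted p = 0.0102), and Spp1, osteopontin, 2131, 2701 and 4293 with vehicle and 15419, 4435 and 32054 with 5-FU (2.15 ± 0.42, adjusted p = 0.0164). Both rose without overlap, Clu most in M1 and Spp1 least in M40. Il33, an alarmin, Ptgs2, the inducible cyclooxygenase, and Basp1 rose by 1.03, 0.62 and 0.79 (adjusted p = 0.0187, 0.0157 and 0.0122). Ly6a, the marker Sca-1 of fetal-like cells, read 22014, 14840 and 17904 with vehicle and 21787, 18430 and 21945 with 5-FU (0.20 ± 0.10, adjusted p = 0.267) and Anxa1 14206, 18320 and 15368 with vehicle and 16025, 22510 and 20674 with 5-FU (0.30 ± 0.11, adjusted p = 0.129), and neither was called. The keratin Krt23 fell, at 1460, 1106 and 2508 with vehicle and 761, 779 and 1292 with 5-FU (-0.79 ± 0.19, adjusted p = 0.0332). Limma called 6 of the list higher and 0 lower without M41, 12 and 2 without M40, and 3 and 0 without M1. With the line as a random block it called 5 higher and 0 lower.

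**Figure D3:**
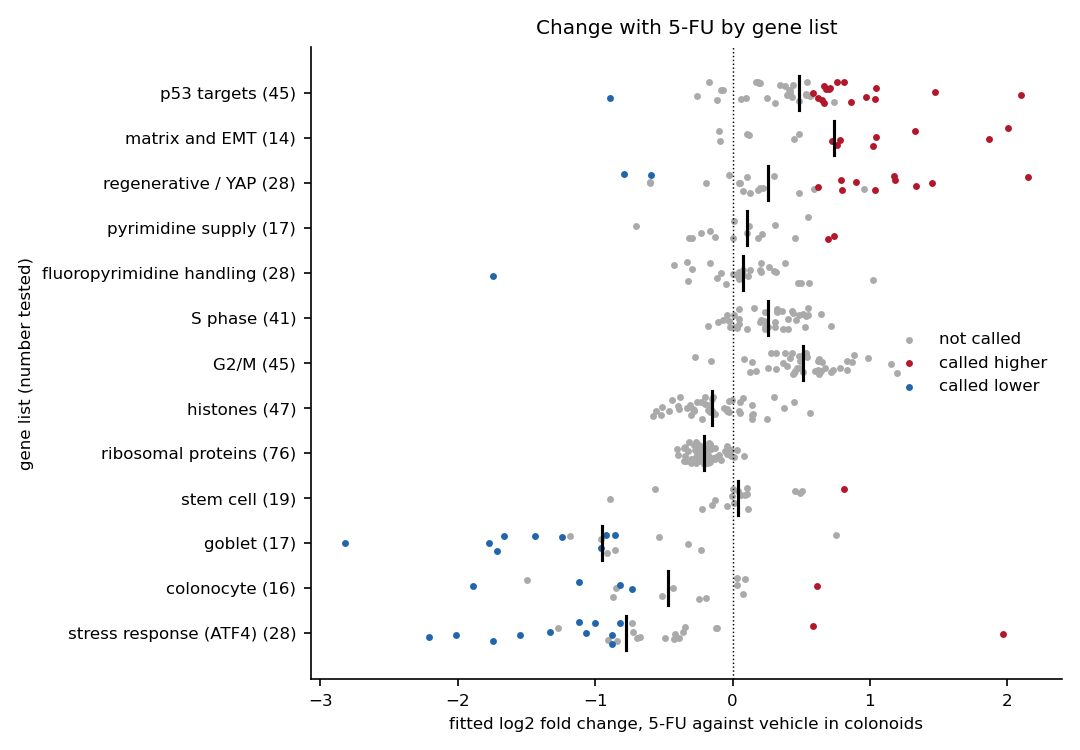
Fitted log2 fold change with 5-FU of every tested gene of 13 lists, 1 point per gene, with a black bar at the list's median and a dotted line at the median of all 10536 genes; red and blue points are genes called higher and lower. The called genes of the p53, matrix and pyrimidine supply lists lie to the right except for Plk3, those of the goblet list to the left, and the G2/M list has a median above 0 with no gene called.

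Beyond these lists, the largest rise was that of Mcam, a cell adhesion molecule, from 28, 35 and 99 to 461, 59 and 1068 (2.35 ± 0.44, adjusted p = 0.0148), which was small in M40. S100a7a, a secreted calcium-binding protein of barrier epithelia, had one of the smallest p-values and read 322, 222 and 103 with vehicle and 1831, 962 and 708 with 5-FU (2.34 ± 0.17, adjusted p = 0.000432), without overlap. Mycn, a transcription factor of the Myc family, read 52, 116 and 72 with vehicle and 291, 505 and 581 with 5-FU (2.26 ± 0.38, adjusted p = 0.0102), Fgf2 177, 311 and 141 with vehicle and 664, 998 and 631 with 5-FU (1.81 ± 0.39, adjusted p = 0.024) and Inhba, the subunit of activin A, 1096, 1555 and 968 with vehicle and 3215, 5464 and 4199 with 5-FU (1.81 ± 0.18, adjusted p = 0.00128). The groups were apart in each of these 3 genes. Flnc, filamin C, Fbln2, fibulin 2, Nat8l, Cox6b2 and Gm42793 complete the 15 largest rises, with log2 fold changes of 1.77, 1.82, 1.96, 2.00 and 2.20. Cox6b2 read 31, 3 and 20 with vehicle and 308, 5 and 345 with 5-FU. It thus stayed very low in M40 with either treatment, and its call was lost without M41 or M1. Gm42793 lies inside Spp1 on the same strand, so reads of the pair cannot be told apart. Among the largest falls outside the lists were Sectm1b, at 416, 1345 and 239 with vehicle and 54, 295 and 28 with 5-FU (-2.37 ± 0.22, adjusted p = 0.00102), Calcb, at 343, 183 and 276 with vehicle and 94, 26 and 38 with 5-FU (-2.05 ± 0.25, adjusted p = 0.00323), Syt7, at 987, 438 and 1049 with vehicle and 152, 264 and 160 with 5-FU (-1.94 ± 0.33, adjusted p = 0.0104), and Pigr, the receptor that carries IgA across the epithelium, at 161, 336 and 252 with vehicle and 14, 202 and 47 with 5-FU (-1.71 ± 0.33, adjusted p = 0.0153). Clca3b fell by 1.87 on the log2 scale (adjusted p = 0.0175). Clca3b, Cyp2c55, Ceacam1 and S100a7a belong to families of close paralogs among which reads may have been split.

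Of the remaining lists, 18 NF-kB target, chemokine and secreted senescence-associated genes held 3 that rose and 3 that fell. Igfbp3, which binds insulin-like growth factors, read 371, 333 and 200 with vehicle and 711, 1219 and 501 with 5-FU (1.32 ± 0.20, adjusted p = 0.00724), Csf1 328, 291 and 422 with vehicle and 504, 550 and 756 with 5-FU (0.76 ± 0.19, adjusted p = 0.044) and Icam1 252, 189 and 1005 with vehicle and 700, 275 and 1502 with 5-FU (0.82 ± 0.18, adjusted p = 0.026). The chemokine Cxcl1 fell from 325, 273 and 245 to 131, 159 and 104 (adjusted p = 0.0218), and Nfkbia and Plaur fell by 0.62 and 0.61 on the log2 scale (adjusted p = 0.0482 and 0.0492). The list had 1 gene called higher and 0 lower without M41, 0 without M1, and 1 higher and 1 lower with the line as a random block. Of 17 interferon-stimulated genes 0 rose and 1 fell, Irf7, a transcription factor of the interferon response, at 289, 199 and 551 with vehicle and 103, 103 and 177 with 5-FU (-1.23 ± 0.23, adjusted p = 0.0151). The call of Irf7 was lost without M41 or M1. The interferon list had 0 genes called without either of these lines, and 2 lower without M40. Of 19 NRF2 antioxidant genes 1 rose, Me1, malic enzyme, at 635, 286 and 156 with vehicle and 1074, 646 and 592 with 5-FU (1.22 ± 0.18, adjusted p = 0.00724), and 0 fell, and of 24 cholesterol genes 0 were called. The NRF2 list had 2 genes called higher and 1 lower without M40. Without M1 it had 0, as Me1 lost its call. With 5.61% of all tested genes called, 1 call sets neither the interferon nor the NRF2 list apart. The 6 mitochondrially encoded protein genes that passed had 0 calls and a median log2 fold change of -0.31, by line 0.19 in M41, -0.92 in M40 and -0.27 in M1.

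Whether Apc-deleted tumoroids answered 5-FU in the same way was asked with 3 tumoroid lines, F11 (female), M3 and M14 (both male), each with its own vehicle library, over the same 10536 genes. The tumoroids come from mice of the same age with floxed Apc alleles and the same Cre, and their 6 libraries share no control with the colonoids. With vehicle Apc read 3715, 4189 and 1990 in colonoids and 4932, 4972 and 5211 in tumoroids (F11, M3 and M14), and counts over the whole gene do not check the deletion. In the labels, 3 libraries (5-FU of F11, M3 and M14) are titled as colonoids, but their descriptions mark them as Apc-deficient, which was followed. Limma called 792 genes in tumoroids (7.52%), 484 higher (4.59%) and 308 lower (2.92%). Of the 400 genes higher in colonoids, 238 (59.5%) were also called higher in tumoroids, which is 49.2% of those called there. Of the 191 lower in colonoids, 66 (34.6%) were called lower in tumoroids, 21.4% of those called there. A total of 391 of the 400 and 166 of the 191 had the same sign. Fosb, a subunit of the AP-1 transcription factor, was the 1 gene called in opposite directions and is named for that, at 73, 495 and 227 with vehicle and 49, 87 and 47 with 5-FU in colonoids (-1.53 ± 0.35, adjusted p = 0.0282) and at 36, 23 and 78 with vehicle and 180, 60 and 234 with 5-FU in tumoroids (1.37 ± 0.35, adjusted p = 0.0307).

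The difference between the responses was tested directly, as tumoroids minus colonoids. It passed an adjusted p of 0.05 for 2 of 10536 genes (0.019%), and 833 had an unadjusted p under 0.05. Rhoc, a small GTPase, read 2698, 3768 and 2017 with vehicle and 1692, 3310 and 1795 with 5-FU in colonoids and, for F11, M3 and M14, 187, 384 and 841 with vehicle and 567, 1173 and 2041 with 5-FU in tumoroids, a difference of 1.78 ± 0.18, adjusted p = 0.0225. Agr2 read 121, 27 and 84 with vehicle and 147, 49 and 88 with 5-FU in tumoroids, and its difference was 1.95 ± 0.22, adjusted p = 0.0407. Rhoc was thus called only in tumoroids, where each line rose, and Agr2 only in colonoids, where each line fell. Akr1c19, Gm15270 and Mxd1 had the next smallest p-values, with adjusted p = 0.145, 0.145 and 0.158.

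The lists stood side by side as follows. The median of the p53 targets was 0.48 in colonoids, where 16 rose and 1 fell, and 0.32 in tumoroids, where 8 rose and 1 fell. That of the stress response genes was -0.77 and -1.26, with 11 and 22 genes called lower. Atf4 read 6503, 10496 and 10285 with vehicle and 2493, 3159 and 3996 with 5-FU in tumoroids (-1.49 ± 0.15, adjusted p = 0.000961) and Chac1 851, 1748 and 1989 with vehicle and 99, 123 and 360 with 5-FU (-2.97 ± 0.34, adjusted p = 0.00178). The matrix genes had medians of 0.74 and 0.84, with 8 and 11 genes called higher. The goblet genes had medians of -0.95 and 0.0214, with 9 and 2 called lower. Both leading goblet genes were low in tumoroids with vehicle, Clca1 at 15, 13 and 3 with vehicle and 12, 3 and 4 with 5-FU and Muc2 at 41, 1 and 10 with vehicle and 29, 14 and 7 with 5-FU, and the difference in response was not called for either (adjusted p = 0.214 and 0.278).

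**Figure D4:**
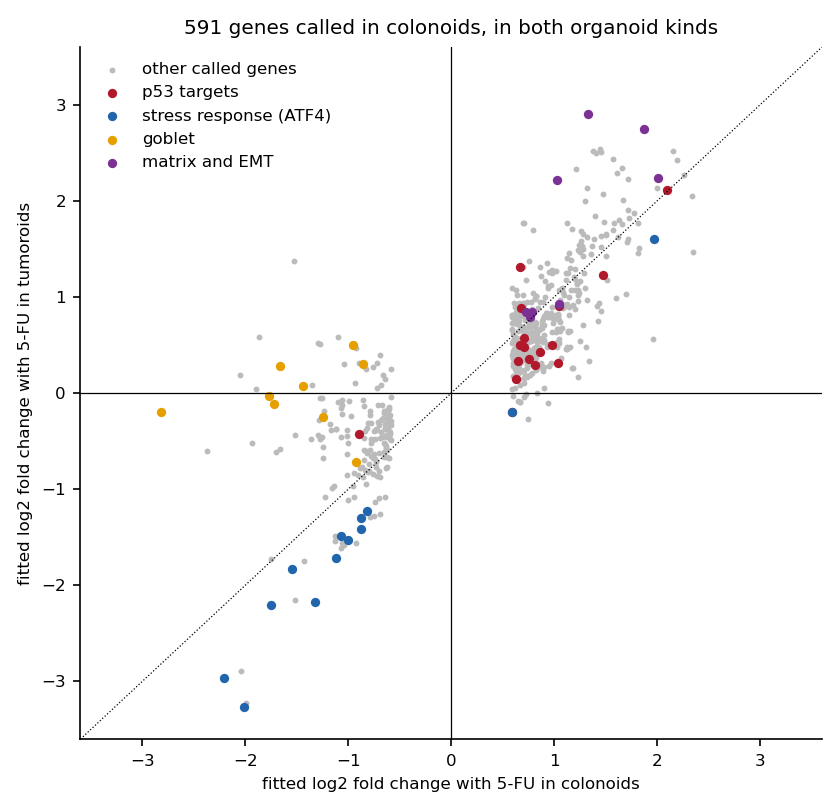
Fitted log2 fold change with 5-FU in tumoroids (vertical) against that in colonoids (horizontal) for the 591 genes called in colonoids; the dotted diagonal marks equal values. By the calling rule no point lies near 0 on the horizontal axis, the 11 stress response genes called lower (blue) lie below the diagonal and the 9 goblet genes (orange) above it.

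Colonoids of the same 3 lines had also been cultured for 6 days with 8 µM regorafenib, a multi-kinase inhibitor, in libraries of 4371519 to 10139420 reads. The comparison with vehicle shares its control libraries with that of 5-FU, so the treatments were compared directly, as 5-FU minus regorafenib, in the 9 colonoid libraries. Limma called 1657 genes (15.7%), 1048 higher with 5-FU (9.95%) and 609 lower (5.78%). The split moved to 868 higher and 800 lower when libraries were scaled by TMM factors, and the count to 606 without M41 and 66 without M40.

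Among the genes called higher with 5-FU against vehicle, 52 were called higher and 90 lower than with regorafenib, and among those called lower, 79 were higher and 18 lower. S100a7a read 16, 99 and 65 with regorafenib, below both vehicle and 5-FU, a difference of 3.94 ± 0.53, adjusted p = 0.00471. Cbs read 107, 111 and 124 (2.08 ± 0.34, adjusted p = 0.0084), within the range of its vehicle libraries. Mdm2 read 4815, 4375 and 4845 with regorafenib and did not pass the test (0.35 ± 0.16, adjusted p = 0.155). The matrix genes Lamb1 and Thbs1 were higher with regorafenib, Lamb1 at 3717, 3061 and 691 (-2.45 ± 0.24, adjusted p = 0.00194) and Thbs1 at 21905, 10815 and 5380 (-1.57 ± 0.41, adjusted p = 0.0337). Mthfd2 read 1993, 1349 and 1249 with regorafenib, above 5-FU (-1.57 ± 0.28, adjusted p = 0.0108).

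The goblet genes Clca1 and Tff3 were lower with regorafenib than with 5-FU, Clca1 at 6, 3 and 0 (3.80 ± 0.80, adjusted p = 0.0173) and Tff3 at 2, 17 and 10 (3.50 ± 0.99, adjusted p = 0.0427). In line M1 Tff3 was near 0 with both drugs, at 8 with 5-FU and 10 with regorafenib, so the difference is that of M41 and M40. The 5 smallest p-values among genes higher with 5-FU belonged to Stra6, Tgm1, Abca1, Gabrp and C4bp, with differences of 3.13, 2.47, 2.71, 4.19 and 3.69, of which 0 were called between 5-FU and vehicle. Stra6, the cellular uptake receptor of retinol, read 1066, 572 and 1454 with vehicle and 1428, 1214 and 2295 with 5-FU, while with regorafenib it did not exceed 275. Among genes lower with 5-FU the smallest p-values were those of Gga2, Kif1a, Enah, Lpcat1 and Creg1, with differences of -1.88, -2.78, -2.13, -1.46 and -1.57. Enah, an actin regulator, rose with 5-FU from 85, 186 and 151 to 245, 724 and 620 (1.70 ± 0.15, adjusted p = 0.000962) and stood at 1636, 2488 and 2521 with regorafenib.

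**Figure D5:**
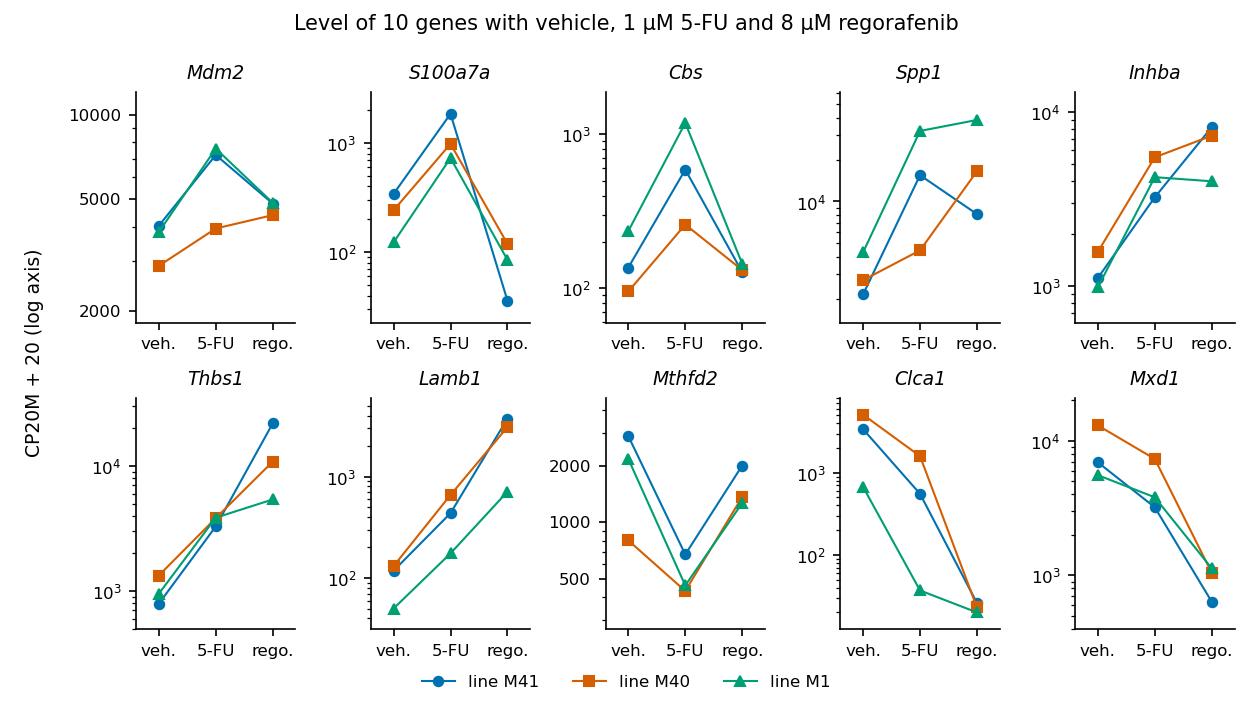
Level of 10 genes, as CP20M + 20 on log axes whose ranges differ between panels, in vehicle, 1 µM 5-FU and 8 µM regorafenib libraries of the 3 colonoid lines, joined by line. S100a7a and Cbs are highest with 5-FU in every line, Lamb1 is highest with regorafenib in every line, and Clca1 is lowest with regorafenib in every line.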

How the data were processed

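Bulk RNA of organoids was sequenced and the authors deposited 1 signal value per gene and library, CP20M, the gene count scaled to 20000000 per library and rounded up to a whole number. According to the submitters' processing notes and the methods, reads were trimmed with Trimmomatic 0.36, aligned to GRCm38 with STAR 2.5.3a and counted per gene with HTSeq 0.9.1. The library kit differs between the sources, and the strand setting of counting is not given in the sources used here. Of the 591 called genes 260 have a gene on the other strand, so their counts may be affected if strand was not used. The share of all tested genes with such a neighbour was not determined, so the 260 are not a trait of the called genes.

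Groups and lines were taken from the sample labels. Genes with at least 200 CP20M (10 CPM) in 2 of the 6 colonoid libraries entered a linear model of log2(CP20M + 20) with moderated variance (limma 3.58.1, R 4.3.3, eBayes with a mean-variance trend, two-sided) in 12 libraries, vehicle and 5-FU of 3 colonoid and 3 tumoroid lines, which share 1 estimate of the spread. The comparison with regorafenib used 9 colonoid libraries. Each p-value was adjusted by the Benjamini-Hochberg method over all 10536 genes, and ± is the standard error of the log2 difference. A gene was called at an adjusted p under 0.05 if its log2 fold change was at least 0.585 in size, and in the test of the difference between responses the adjusted p alone. The pseudocount understates changes of low genes. The line was a block because each line comes from 1 mouse. Deviations from the group means correlated at 0.663 to 0.854 in 6 pairs of the same line and at -0.665 to 0.0998 in 12 pairs of other lines. Deviations from a mean of 3 libraries cancel out for each gene. The values for other lines were thus partly fixed by those for the same line. The fit was also run on simulated libraries in which the changed genes moved by the same amount in every line. Such data cannot show how the fit performs where lines respond differently.

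The members and the gene lists were chosen with earlier results of these data known. Named genes are the 15 largest rises and the 15 largest falls, called list members (up to 12 a list by p), defining genes of p53 and fluoropyrimidine metabolism, and the 5 smallest p-values of the other tests in each direction. Chosen after their values were seen were Bax, Bbc3, Pmaip1, Ddit4l, Trp53i11, Phlda3, Psph, Mki67, Ccnb1, Top2a, Epcam, Cdh1, Ly6a, Anxa1, Fosb, Apc, the markers and factors given as under the filter, and the genes whose tumoroid or regorafenib values are given beside those of the rule. The fibroblast libraries were not used, and 1 called list member is not reported here by name.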

Additional observations from a re-analysis of the deposited data

Results flagged for a closer look

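The response to 5-FU differed between tumoroids and colonoids in a direct test for Rhoc and Agr2. For Rhoc, a small GTPase, the difference of the log2 fold changes, tumoroids minus colonoids, was 1.78 (adjusted p = 0.0225, limma), with a rise in 3 of 3 tumoroid lines and lower values in 3 of 3 colonoid lines. For Agr2, the disulfide isomerase of goblet cells, it was 1.95 (adjusted p = 0.0407, limma), with a fall in 3 of 3 colonoid lines and slightly higher values in 3 of 3 tumoroid lines. Neither call was made without the line as a block, with 24 or 23 organoid libraries in the fit, with the line as a random block, or without F11, M3, M14 or M1, and that of Agr2 was lost in addition with either other pseudocount, with median centring and without M41 or M40. Agr2 stayed under the minimum of 200 CP20M in all 6 tumoroid libraries, between 27 and 147 CP20M.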

How the results depend on the processing

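No gene called in any of the 4 comparisons had the opposite sign under any alternative that was run. Much of this was fixed in advance. Changing the block, the filter or the cutoffs, or adding libraries of other treatments, leaves each fold change as it was. Leaving out a line could not reverse the colonoid calls, since all of them moved the same way in every line. The sign is thus no measure of how stable the counts are. The count of genes called for 5-FU in colonoids (591) stayed within 1.5 times under TMM scaling (582), median centring (575), a pseudocount of 2 (590) or 100 (482), 6 colonoid libraries alone (513) and the filter of 200 CP20M in all 6 libraries (409). Without the replicate block limma called 0 genes in colonoids (1013 at an unadjusted p under 0.05), 0 in tumoroids (1478) and 0 for the difference between responses (124), and the comparison with regorafenib fell from 1657 to 1167. With all 24 organoid libraries and the block the counts were 68, 230 and 0, and without the 4 µM regorafenib library of M41, the shallowest of the 24 and left out after seeing the data, 350 in colonoids and 0 for the difference. The line as a random replicate block, also added later, gave 500 in colonoids and 0 for the difference. Without a filter on low values 282 genes were called among 34482 tested. An FDR of 0.01 left 167, 305 and 0, and an absolute log2 fold change of 1 left 207 in colonoids and 226 in tumoroids. For the difference, a pseudocount of 2 and median centring left 1 gene each. Leaving out 1 line at a time gave 92 (without M1) to 891 (without M40) genes in colonoids, 276 (without M3) to 1004 (without F11) in tumoroids, 301 there without M14, 0 to 3 for the difference, and 66 (without M40) to 1664 (without M1) for 5-FU against regorafenib. The cause of these shifts was not tested. The planned edgeR and DESeq2 tests on recovered reads were not run, since the deposited values are scaled and rounded up and are not counts.

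In the fit of 3 colonoid and 3 tumoroid lines the call of a single gene rests on few residual degrees of freedom (4). The moderated variance added prior degrees of freedom of 5.49. Genes with low values are limited by depth, the shallowest of the 6 colonoid libraries compared being vehicle M41, where 1 read is worth 3.03 CP20M.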

Other observations

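Among the genes with the smallest adjusted p-values in colonoids were 4 that belong to no list and were chosen after their values were seen. Values are CP20M of lines M41, M40 and M1. Anxa6, an annexin that binds membranes in the presence of calcium, read 1533, 1929 and 1649 with vehicle and 3470, 5039 and 4043 with 5-FU (log2 fold change 1.28 ± 0.09, adjusted p = 0.000432, limma). Arl4c, a small GTPase of the ARF family, read 1251, 1515 and 2037 with vehicle and 3757, 3792 and 6378 with 5-FU (1.51 ± 0.10, adjusted p = 0.000432). Klhdc7a read 711, 463 and 996 with vehicle and 2133, 1364 and 2288 with 5-FU (1.42 ± 0.11, adjusted p = 0.000484). Cdk18, a cyclin-dependent kinase of the PCTAIRE group, read 774, 805 and 742 with vehicle and 1741, 1806 and 1659 with 5-FU (1.15 ± 0.10, adjusted p = 0.000934). In all 4 genes every 5-FU library lay above every vehicle library.

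By annotation 543 of the 591 called genes were protein-coding, 19 antisense and 7 lincRNA. The shares of these classes among all tested genes were not determined, so the counts only describe the called genes. The 4 called mitochondrial tRNA genes, mt-Ta, mt-Tn, mt-Tc and mt-Ty, fell by 0.93, 0.75, 0.70 and 0.65 on the log2 scale.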
